A study of Mus musculus with 12 samples.

Results

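Beta cells couple blood glucose to insulin release through a chain of proteins. Glucose enters through a transporter, its metabolism raises ATP, ATP closes the KATP channel, the membrane depolarizes, voltage-gated calcium channels open, and calcium drives insulin granules to fuse with the plasma membrane by SNARE proteins. Receptors for incretins, lipids and somatostatin tune the last steps, in part through cAMP. The genes described here are the 34 mouse genes chosen for these roles, out of 38924 gene identifiers in the count tables, and all 34 passed the filter on low counts, as 16645 identifiers did. They were chosen by known function. Glucose entry and glucose-6-phosphate had 2 genes, the KATP channel 2, cation channels 6, and receptors and cAMP 7. SNAREs had 3, synaptotagmins with Doc2b 4, priming, docking and clamping 6, and granule content and membrane 4.

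The tumors were pancreatic neuroendocrine tumors (PanNETs, islet tumors or insulinomas) of C57Bl6 RIP1Tag2 mice, in which the rat insulin promoter drives the SV40 T antigen in beta cells. All 12 tumors carried this transgene and came from mice treated for 4 days from 15.5 weeks of age. The control group received saline (4 tumors, 1 to 4), a second group sunitinib, an inhibitor of VEGF receptor signaling (tumors 5, 6, 8 and 12), and the last group rapamycin, an mTOR inhibitor, plus sunitinib (R+S, tumors 4, 5, 7 and 10). The comparisons ask what sunitinib alone, R+S, and the addition of rapamycin to sunitinib changed. Sample titles carried a prefix that all 4 control tumors shared, as did 3 sunitinib tumors (5, 6 and 8) and 2 R+S tumors (5 and 7). The meaning of the prefixes is not given, no prefix occurred in more than 1 group, and so prefix and treatment cannot be told apart. P-values treat each tumor as independent and measure only the spread between these tumors.

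Between 31872342 and 44215054 reads per tumor lay on genes. Log2 CPM of tested genes correlated at 0.967 to 0.991 among control tumors and 0.967 to 0.982 among R+S tumors. The correlation was 0.957 to 0.978 among sunitinib tumors 5, 8 and 12, but only 0.834 to 0.895 between sunitinib tumor 6 and the other 11 tumors. Counts of calls and a number of single results are therefore also given without sunitinib tumor 6. The summed level of 8 beta cell markers (Ins1, Ins2, Iapp, Pdx1, Nkx6-1, Mafa, Neurod1, Nkx2-2) was 29110 to 74380 normalized CPM in the other 11 tumors and 1923 in sunitinib tumor 6. That tumor held Ins2 at 783.8 against 10610 to 43800 in the others, Pdx1 at 4.17 against 155 to 442, and Mafa at 3.04 against 38.0 to 140. Neurod1 and Nkx2-2 lay much nearer their ranges, at 164.8 against 193 to 406 and 126.3 against 148 to 270. The label of a beta cell tumor was thus met by its markers in 11 tumors and only weakly in sunitinib tumor 6, where all 8 markers lay below their range in the others. Fewer beta cells and less RNA per beta cell cannot be told apart in bulk tissue.

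Normalized CPM below are CPM after TMM scaling, read counts relative to a library of fixed size, and an adjusted p under 0.05 in the edgeR quasi-likelihood fit of all 12 tumors is a call. Divided by the kilobases of annotated exon, the level of the 34 genes in control tumors had a median of 34.3, against 5.07 over the 16469 tested genes with a length, and 30 of the 34 lay above that second value. G6pc2, the islet glucose-6-phosphatase that opposes glucokinase, was highest at 777 ± 130 normalized CPM per kilobase (SD, n = 4). The zinc transporter Slc30a8 followed at 461 ± 113, then Syt13 at 273 ± 66.6, the peptide hormone Ucn3 at 247 ± 51.1 and the KATP subunit Abcc8 at 202 ± 18.8. At the low end stood the beta subunit Cacnb2 at 2.76 ± 0.171 and the adenylyl cyclase Adcy5 at 1.90 ± 2.21. Of the 33 neighboring pairs in this order only 7 had ranges that did not overlap, so most neighbors did not differ beyond the spread of the control tumors. Adcy5 rested on 1 tumor, with 37.4 normalized CPM in control 1 against 5.10 to 6.71 in the other control tumors.

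**Figure D1:**
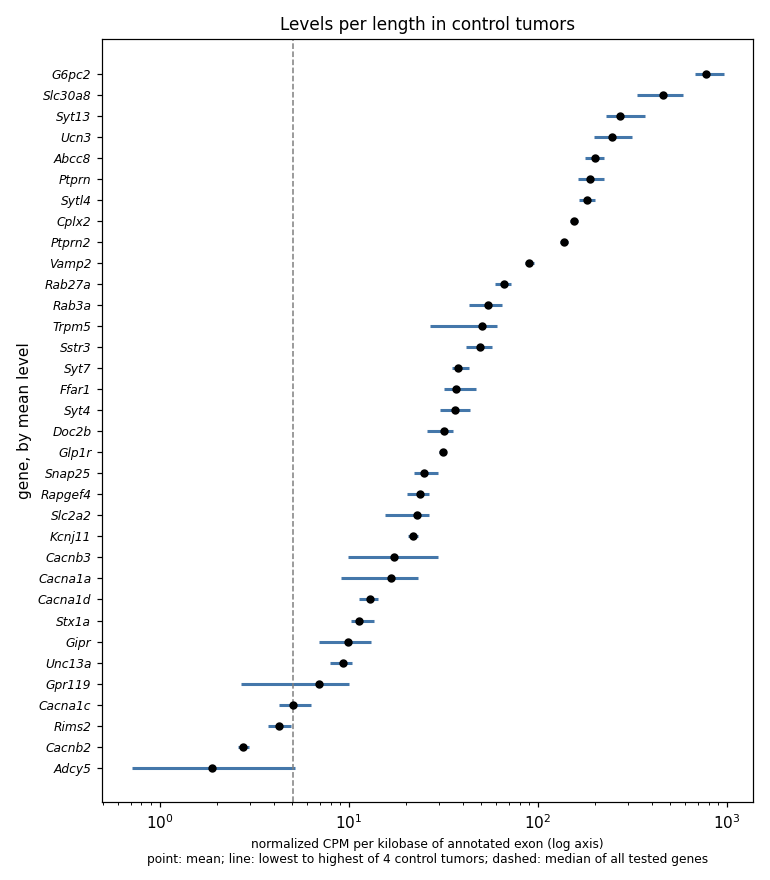
Levels per length of the 34 genes in the 4 control tumors. The horizontal axis is normalized CPM per kilobase of annotated exon on a log scale, points are means, lines run from the lowest to the highest tumor, and the dashed line is the median of all tested genes; 30 of 34 points lie to its right.

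Across the groups the 34 genes split between both directions. In sunitinib versus control 12 had a positive and 22 a negative log2 fold change, with a median of -0.31 against 0.03 over all tested genes. Against control, R+S had 18 positive and 16 negative values, with a median of 0.08 against 0.01. Between R+S and sunitinib 23 were positive and 11 negative, with a median of 0.28 against -0.03. The first and the last of these comparisons share the sunitinib tumors and the first and second share the controls. Without sunitinib tumor 6 the medians of the 34 genes were -0.20, 0.08 and 0.34.

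Calls were few. In sunitinib versus control 1 of 34 genes was called higher (Unc13a) and 0 lower, where 1.93% of all tested genes were called higher and 2.55% lower. An unadjusted p under 0.05 was held by 5 of the 34 and by 3247 of all 16645 tested genes. DESeq2 called Unc13a higher and Rapgef4 lower, beside 4.65% and 4.41% of all genes with an adjusted p. For R+S against control 0 were called in the edgeR fit, beside 1.55% of all genes called higher and 2.61% lower. There 5 of the 34 and 3347 of the 16645 tested genes had an unadjusted p under 0.05. DESeq2 called 3 there (Gpr119, Syt7 and Unc13a, all higher), and itself called 4.23% of all genes higher and 6.13% lower. In R+S versus sunitinib 1 was called higher (Cacna1d) and 0 lower, beside 2.63% and 4.58% of all genes. Here 7 of the 34 and 5067 of the 16645 tested genes had an unadjusted p under 0.05. DESeq2 called 5 higher (Cacna1d, Cacnb2, Cplx2, Gpr119 and Ptprn2) and 0 lower, beside 7.8% and 11.7% of all genes. Each count is a few genes of 34, read against these backgrounds, and says nothing particular about the 34 genes.

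The R+S counts depended on which sunitinib tumors shared the fit. Without sunitinib tumor 6, 3 genes rose in R+S versus control (Syt7, Gipr and Unc13a), beside 4.11% of all genes higher and 5.56% lower. The same fit called 5 genes higher (Cacna1d, Syt7, Cplx2, Gipr and Cacnb2) and Ucn3 lower in R+S versus sunitinib, beside 4.17% and 5.89%. In sunitinib versus control Unc13a was again the 1 gene called, beside 1.96% higher and 3.34% lower. When R+S and control tumors alone were fitted, 5 genes were called higher (Cacna1d, Gpr119, Ptprn2, Syt7 and Unc13a) and Ucn3 lower, beside 6.69% and 9.11% of all genes.

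Counted instead by groups of 4 tumors whose values did not overlap, 5 of the 34 genes separated sunitinib from control (Kcnj11, Rapgef4, Unc13a, Rab27a and Cplx2), where 10.9% of all tested genes did. R+S and control were separated by 10 genes (Cacna1d, Cacnb2, Gipr, Gpr119, Sstr3, Syt7, Unc13a, Sytl4, Ucn3 and Ptprn2), beside 23.5% of all genes. R+S and sunitinib were separated by 6 genes (Cacna1d, Cacnb2, Gpr119, Syt13, Cplx2 and Ptprn2), beside 18.6%.

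**Figure D2:**
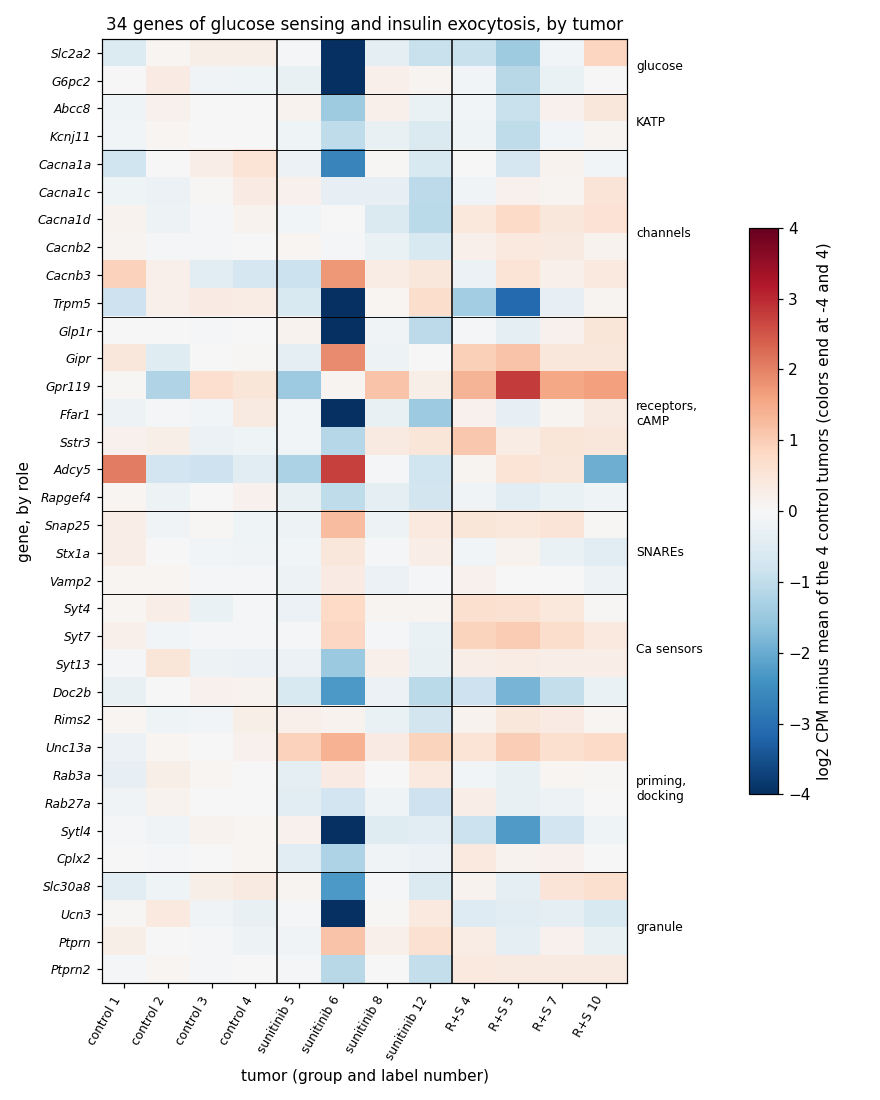
Log2 CPM of each of the 34 genes (rows, grouped by role) in each of the 12 tumors (columns), minus the mean of the 4 control tumors; red is higher, blue lower, and the colors end at -4 and 4. Sunitinib tumor 6 holds the darkest cells, with Slc2a2, G6pc2, Trpm5, Glp1r, Ffar1, Sytl4 and Ucn3 far below the other tumors and the SNAREs above them.

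Sunitinib tumor 6 was below all other 11 tumors in 17 of the 34 genes and above all of them in 9, while 22.5% and 22.6% of all tested genes did so. The 17 included both glucose genes, both KATP subunits and 4 of 7 receptor and cAMP genes. The 9 were the 3 SNAREs, Cacnb3, Gipr, Adcy5, Syt4, Unc13a and Ptprn. In 7 genes the tumor held under 10% of the control mean (Slc2a2, G6pc2, Trpm5, Glp1r, Ffar1, Sytl4 and Ucn3), as did 2.88% of all tested genes. Those 7 were counted at 74 to 1056 reads there. This is 1 tumor, the limit of 10% was set after its values were seen, and no test was run. Sunitinib tumor 12 came close over all tested genes, lowest of the 12 tumors in 20.9% and highest in 21.3%. Of the 34 genes, tumor 12 was lowest in 6 (Cacna1c, Cacna1d, Cacnb2, Syt7, Rims2 and Rab27a) and highest in 3 (Trpm5, Rab3a and Ucn3).

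The same tumor differed in markers of other cells. Of the alpha cell markers, Ttr was at 6357 normalized CPM against 27.7 to 257 in the other 11 tumors and Irx2 at 339.7 against 2.79 to 29.6, while glucagon (Gcg) at 74.1 lay within the range of the others (11.7 to 379). A list of 3 delta cell markers summed to 675.5 against at most 83.6, of which Rbp4 made 668.6, with Sst at 5.03 and Hhex at 1.82. Ppy, for PP cells, was 3.54 against 0.257 to 40.5. Sst, Hhex and Ppy, like Gcg, lay within the range of the other 11 tumors. Ttr, Irx2 and Rbp4 lay above it in the tumor where Slc2a2, G6pc2 and Glp1r lay below it. The part of such cells in the low levels was not tested. Without the tumor the median SD of log2 CPM of the 34 genes in the sunitinib group was 0.347 in place of 0.698, beside 0.328 and 0.432 for all tested genes. It was 0.202 in control (all genes 0.236) and 0.285 in R+S (all genes 0.213).

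Sequence upstream of the genes that were low together in sunitinib tumor 6 is shown beside that of Unc13a, which was high there. The 250 bases before the RefSeq start (GRCm38.p6) were available here for 22 of the 34 genes, with CG dinucleotides in capitals. The 5 printed were chosen after the values were seen, among genes whose RefSeq and GENCODE starts coincide.
Slc2a2 (chr3:28697653-28697902, plus strand): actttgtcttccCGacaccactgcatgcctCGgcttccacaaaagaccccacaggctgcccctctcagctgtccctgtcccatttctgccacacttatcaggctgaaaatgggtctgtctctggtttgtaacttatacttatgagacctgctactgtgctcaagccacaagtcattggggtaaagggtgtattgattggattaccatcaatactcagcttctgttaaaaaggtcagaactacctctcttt
G6pc2 (chr2:69210823-69211072, plus strand): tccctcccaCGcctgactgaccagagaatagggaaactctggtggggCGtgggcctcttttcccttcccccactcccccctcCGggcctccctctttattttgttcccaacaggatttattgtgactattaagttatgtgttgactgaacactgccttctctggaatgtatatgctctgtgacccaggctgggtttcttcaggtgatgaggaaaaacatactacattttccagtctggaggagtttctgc
Ucn3 (chr13:3945350-3945599, minus strand): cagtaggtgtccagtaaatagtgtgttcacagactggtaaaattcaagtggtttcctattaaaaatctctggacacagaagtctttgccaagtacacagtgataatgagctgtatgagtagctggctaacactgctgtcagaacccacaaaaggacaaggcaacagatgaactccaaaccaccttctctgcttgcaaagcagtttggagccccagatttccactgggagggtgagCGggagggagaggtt
Sytl4 (chrX:133981813-133982062, minus strand): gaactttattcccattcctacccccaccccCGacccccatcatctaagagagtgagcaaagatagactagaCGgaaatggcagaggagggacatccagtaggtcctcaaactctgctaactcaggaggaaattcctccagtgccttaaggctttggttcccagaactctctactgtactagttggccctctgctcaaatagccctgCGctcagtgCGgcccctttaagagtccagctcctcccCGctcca
Unc13a (chr8:71671758-71672007, minus strand): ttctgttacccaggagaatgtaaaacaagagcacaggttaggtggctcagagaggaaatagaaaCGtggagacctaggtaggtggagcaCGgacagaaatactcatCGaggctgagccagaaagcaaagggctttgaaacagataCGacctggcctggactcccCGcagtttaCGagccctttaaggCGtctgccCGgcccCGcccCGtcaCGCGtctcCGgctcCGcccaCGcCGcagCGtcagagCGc
Slc2a2 held 2 CG, G6pc2 held 3, Ucn3 held 1 and Sytl4 held 5, against 18 for Unc13a and a median of 6 over 32817 mouse windows. Unc13a was 1 of 5 genes with a window whose level in that tumor lay above all others, and the rest held 2 CG in Cacnb3, 9 in Stx1a, 10 in Ptprn and 32 in Adcy5. Of the 7 genes under 10% of control in sunitinib tumor 6, 6 held at most 9 CG, and Glp1r was the exception with 26. Of the other 15 genes with a window 7 held at most 9, as did 62.2% of all windows. Among these 7 were Cplx2 and Cacnb3, whose RefSeq starts lay 68793 and 1488 bases from the GENCODE start. For Cacnb2, with 30 CG, the distance was 1218 bases. These counts describe the letters only and were not tested.

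Glucose entry was the step for which the study asked whether mTOR inhibition alters transporters. By staining, the paper reported more GLUT2 in normoxic regions of R+S tumors than of sunitinib tumors. It reported the same direction by western blot and qRT-PCR of tumors. The values below are bulk RNA-seq after 4 days of treatment, which measures no protein and does not resolve regions of a tumor. Slc2a2 (chromosome 3, 28697903 to 28731359, plus strand, GRCm38) encodes GLUT2, the main glucose transporter of mouse beta cells. It was present at 88.9, 136, 152 and 151 normalized CPM in control tumors 1 to 4, and at 124, 2.045, 98.9 and 69.8 in sunitinib tumors 5, 6, 8 and 12. R+S tumors 4, 5, 7 and 10 held 69.0, 47.9, 121 and 233, which spans the control range on both sides. Group values overlapped in every comparison and no difference passed the test. The log2 fold change was -0.84 ± 0.80 (SE, n = 4 per group) in sunitinib versus control, with a 95% interval of -2.41 to 0.73 and an adjusted p of 0.59. It was -0.17 ± 0.80 in R+S versus control (interval -1.73 to 1.39, adjusted p 0.93) and 0.67 ± 0.80 in R+S versus sunitinib (interval -0.89 to 2.24, adjusted p 0.59). Changes of these sizes were not detectable with this spread. Without sunitinib tumor 6 the value was -0.43 in sunitinib versus control (adjusted p 0.62) and 0.27 in R+S versus sunitinib (adjusted p 0.70). G6pc2 ran from 1335 to 1905 in control, from 708 to 1536 in R+S, and was 29.2 in sunitinib tumor 6 against 1246 to 1740 in the other sunitinib tumors.

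The KATP channel pairs the sulfonylurea receptor Abcc8 with the pore subunit Kcnj11. Abcc8 stood at 1445, 1816, 1648 and 1618 normalized CPM in control tumors 1 to 4. Sunitinib tumors 5, 6, 8 and 12 held 1787, 600.7, 1890 and 1366, and R+S tumors 4, 5, 7 and 10 held 1515, 869.1, 1850 and 2220. It lay between 1366 and 2220 in 10 tumors, with sunitinib 6 and R+S 5 below that range. The log2 fold changes were -0.21 ± 0.34, -0.02 ± 0.34 and 0.19 ± 0.34 in sunitinib versus control, R+S versus control and R+S versus sunitinib (SE, n = 4 per group, adjusted p 0.76, 0.99 and 0.73), and their sign turned when single tumors were left out. Kcnj11 stood at 75.6, 85.2, 82.4 and 80.2 in control, 72.5, 39.5, 65.8 and 54.5 in sunitinib, and 72.3, 39.6, 74.8 and 86.6 in R+S, in the same tumor order. All 4 sunitinib tumors lay below all 4 control tumors (two-sided exact permutation p = 0.0286, the smallest that 4 against 4 allows). Its log2 fold change of -0.48 ± 0.23 had an adjusted p of 0.28 and so did not pass the test over all genes. The value was -0.33 without sunitinib tumor 6 (adjusted p 0.42). Kcnj11 differed in R+S versus control by -0.24 ± 0.23 and in R+S versus sunitinib by 0.24 ± 0.23, with adjusted p of 0.59 and 0.51.

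Among the cation channels, Cacna1d was the gene called between the treated groups. It encodes Cav1.3, a pore subunit of the L-type calcium channel, and lies on chromosome 14, 30039939 to 30491455, minus strand. Control tumors 1 to 4 held 180, 142, 153 and 178 normalized CPM, sunitinib tumors 5, 6, 8 and 12 held 150, 162, 108 and 77.1, and R+S tumors 4, 5, 7 and 10 held 218, 275, 222 and 240. Every R+S tumor exceeded every sunitinib and every control tumor. Cacna1d was 1.92-fold higher in R+S than in sunitinib (log2 fold change 0.94 ± 0.21, SE, n = 4 per group, adjusted p 0.029, exact permutation p 0.0286). The call was lost without sunitinib tumor 8, without any 1 of the R+S tumors, and when only the 8 treated tumors were fitted (adjusted p 0.10). The log2 fold change lay between 0.77 and 1.10 over the 12 fits that left out 1 tumor. Against control the value was 0.55 ± 0.20 with an adjusted p of 0.16. An exon of Chdh on the other strand overlaps 589 of the 12621 exon bases, and the strand setting of the counting is not given in the sources used here.

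The other channel genes were not called by edgeR with all 12 tumors. Cacnb2, an auxiliary beta subunit, ran from 34.2 to 39.4 in control, 23.6 to 38.1 in sunitinib and 40.2 to 47.8 in R+S, so R+S lay above both other groups. Its difference of 0.49 ± 0.14 from sunitinib had an adjusted p of 0.057, and 0.048 without sunitinib tumor 6, and DESeq2 called it with all tumors. Cacna1c, the Cav1.2 pore subunit, ran from 90.5 to 134 in control, 51.1 to 120 in sunitinib and 96.4 to 152 in R+S. The P/Q-type subunit Cacna1a was 104 to 264 in control and 112 to 200 in R+S, and 29.2 in sunitinib tumor 6 against 118 to 187 in the rest of its group. Cacnb3, a second beta subunit, went the other way in that tumor, with 209 against 34.9 to 87.0. Trpm5, a calcium-activated cation channel that adds to depolarization, spread widely, from 172.5 to 388 in control, 36.0 to 331 in R+S and 203 to 503 in sunitinib apart from 2.32 in tumor 6.

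**Figure D3:**
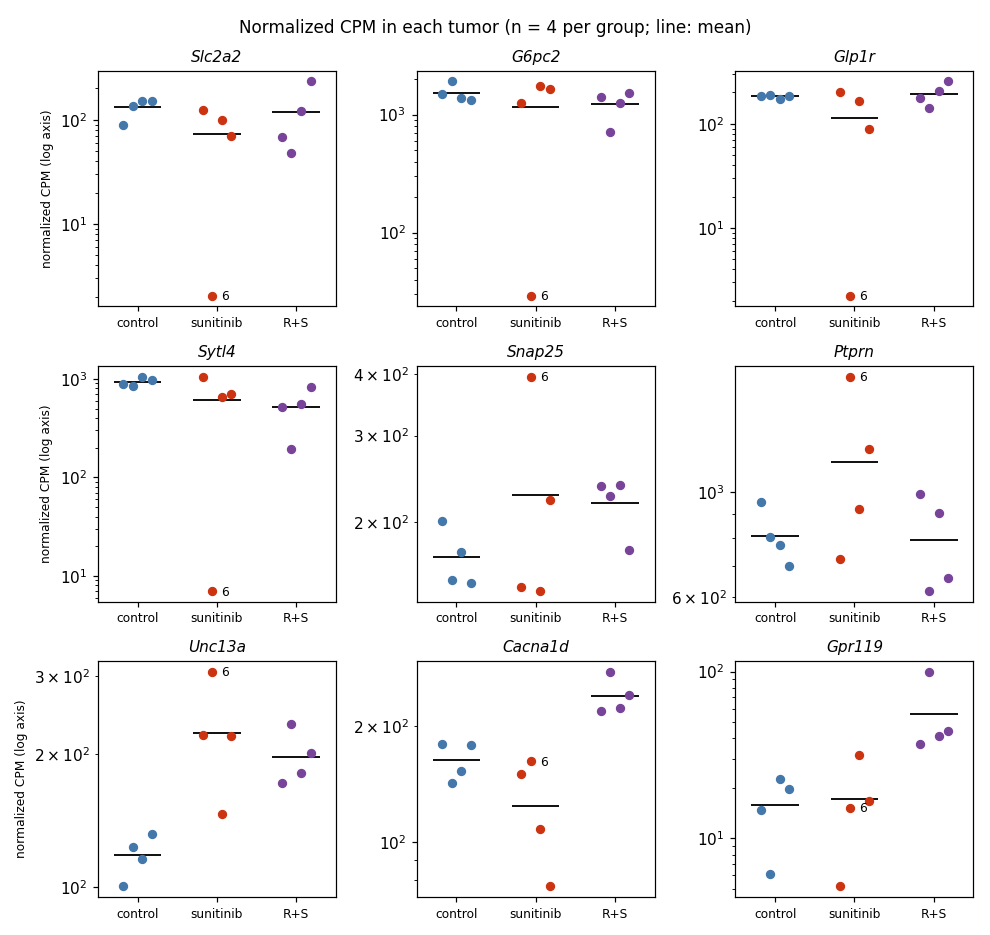
Normalized CPM of 9 genes in each tumor, on log axes whose ranges differ between panels. Each group has 4 tumors, the line is the arithmetic mean, and 6 marks sunitinib tumor 6, which is lowest for Slc2a2, G6pc2, Glp1r and Sytl4 and highest for Snap25, Ptprn and Unc13a; all 4 R+S tumors lie above both other groups for Cacna1d and Gpr119.

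Receptors diverged from one another. Glp1r, the receptor of the incretin GLP-1, was among the steadiest genes in control at 186, 187, 175 and 187 normalized CPM. Sunitinib tumors 5, 6, 8 and 12 held 201, 2.24, 166 and 89.0, and R+S tumors 4, 5, 7 and 10 held 176, 141, 205 and 255. The groups overlapped, and the log2 fold changes of -0.68 ± 0.77, 0.08 ± 0.76 and 0.76 ± 0.77 in the 3 comparisons had adjusted p of 0.66, 0.97 and 0.52. These were -0.271, 0.083 and 0.355 without sunitinib tumor 6, with adjusted p of 0.58, 0.85 and 0.34. Gipr, which binds the other incretin GIP, was 46.1 to 74.8 in R+S, above the 24.2 to 45.8 of control, while in the sunitinib group tumor 6 held 124 and the other 3 tumors 25.5 to 33.3. Its difference between R+S and control was 0.75 ± 0.46 with an adjusted p of 0.38, and 0.75 with an adjusted p of 0.047 without sunitinib tumor 6.

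Gpr119, a lipid receptor coupled to cAMP, differed more than any other of the 34 genes in R+S. Control tumors 1 to 4 held 14.8, 6.14, 22.7 and 19.8 normalized CPM, sunitinib tumors 5, 6, 8 and 12 held 5.18, 15.3, 31.7 and 16.8, and R+S tumors 4, 5, 7 and 10 held 36.8, 99.7, 41.2 and 44.2. The R+S tumors overlapped neither group. The log2 fold change was 1.81 ± 0.54 against control and 1.69 ± 0.54 against sunitinib (SE, n = 4 per group), with adjusted p of 0.084 and 0.071 and an exact permutation p of 0.0286 in both. DESeq2 called it higher in both comparisons. Its control level of 6.99 ± 3.19 normalized CPM per kilobase (SD, n = 4) ranked 30 of 34.

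Ffar1, the free fatty acid receptor, ran from 134 to 196 in control and 122 to 195 in R+S, and held 3.34 in sunitinib tumor 6 against 56.0 to 143 in the other sunitinib tumors. The somatostatin receptor Sstr3, which restrains secretion, ran from 259 to 443 in R+S, above the 181 to 248 of control, with a log2 fold change of 0.59 ± 0.30 and an adjusted p of 0.30. Rapgef4, the cAMP sensor Epac2, was lower in all 4 sunitinib tumors, at 78.2 to 128 against 136 to 177 in control. Its log2 fold change of -0.58 ± 0.16 had an adjusted p of 0.057 in edgeR, and DESeq2 called it lower. The edgeR value was -0.465 without sunitinib tumor 6 (adjusted p 0.075). Adcy5 had no group pattern, with 61.4 in sunitinib tumor 6, 37.4 in control tumor 1 and 2.33 to 13.3 in the other 10 tumors.

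The SNARE proteins that fuse the granule with the membrane overlapped between all groups. The vesicle SNARE Vamp2 ran from 325 to 362 in control, 291 to 430 in sunitinib and 296 to 386 in R+S. Snap25 ran from 150 to 201, 145 to 396 and 175 to 238, and Stx1a from 27.3 to 36.3, 27.9 to 40.7 and 22.5 to 32.7. None of the 3 genes passed the test in any of the 3 comparisons in edgeR, with 0 at an unadjusted p under 0.05, or in DESeq2. All 3 were highest of the 12 tumors in sunitinib tumor 6.

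Among the synaptotagmins and Doc2b, Syt7, a slow high-affinity synaptotagmin, stood in every R+S tumor above every control tumor. Control tumors held 263 to 326 normalized CPM, R+S tumors 366 to 576, and sunitinib tumors 237 to 273 apart from 498 in tumor 6. The log2 fold change of 0.77 ± 0.23 against control had an adjusted p of 0.083, and 0.0079 without sunitinib tumor 6. Against sunitinib it was 0.60 ± 0.23 (adjusted p 0.11), and 0.90 (adjusted p 0.021) without that tumor. Syt13, an atypical synaptotagmin, was nearly equal in the 4 R+S tumors at 1205 to 1230, beside 859 to 1396 in control and 363 to 1155 in sunitinib. Syt4 ran from 118 to 171 in control, 121 to 245 in sunitinib and 146 to 219 in R+S. Doc2b, a calcium-binding C2-domain protein, had lower means under both treatments, with 113 to 155 in control, 28.3 to 119 in sunitinib and 37.8 to 114 in R+S. Its log2 fold changes of -0.88 ± 0.39 and -0.89 ± 0.39 had adjusted p of 0.24 and 0.23. The sunitinib value was -0.61 without sunitinib tumor 6 (adjusted p 0.31).

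Unc13a, which primes granules for release as Munc13-1, was the 1 gene of the 34 called in sunitinib versus control. It lies on chromosome 8, 71624417 to 71671757, minus strand. Control tumors 1 to 4 held 100.4, 123, 116 and 132 normalized CPM, sunitinib tumors 5, 6, 8 and 12 held 221, 306, 146 and 219, and R+S tumors 4, 5, 7 and 10 held 172, 234, 181 and 201. All 8 treated tumors lay above all 4 controls, and the treated groups overlapped each other. Unc13a was 1.89-fold higher in sunitinib than in control (log2 fold change 0.92 ± 0.20, SE, n = 4 per group, adjusted p 0.020, exact permutation p 0.0286). Without sunitinib tumor 6 the value was 0.73 with an adjusted p of 0.026, and the call was lost without control tumor 1, without control tumor 3, and when only the 8 tumors were fitted (adjusted p 0.078). In R+S it was 1.67-fold higher than in control (0.74 ± 0.20, adjusted p 0.056), and 0.015 was the adjusted p without sunitinib tumor 6. Exons of Colgalt1 on the other strand overlap 495 of its 12623 exon bases.

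The other docking genes did not follow Unc13a. Rab27a, a granule GTPase, was lower in all 4 sunitinib tumors (143 to 229) than in any control tumor (230 to 281). The log2 fold change was -0.52 ± 0.17 with an adjusted p of 0.12. For Rab27a the value was -0.45 without sunitinib tumor 6 (adjusted p 0.18). Its effector Sytl4, or granuphilin, ran from 846 to 1035 in control and 196 to 833 in R+S, without overlap, and was 7.02 in sunitinib tumor 6 against 661 to 1055 in the other sunitinib tumors. The R+S difference of Sytl4 was -0.84 ± 0.87, with an adjusted p of 0.63. Cplx2, the complexin that clamps SNARE complexes, ran from 726 to 806 in control, 330 to 692 in sunitinib and 776 to 1003 in R+S. It was 0.64 ± 0.20 higher on the log2 scale in R+S than in sunitinib (adjusted p 0.067, and 0.042 without sunitinib tumor 6, with a DESeq2 call in all tumors). Rab3a ran from 96.6 to 143, 91.1 to 159 and 98.0 to 129, and the scaffold Rims2 from 38.9 to 51.6, 26.3 to 50.8 and 46.2 to 60.7, in control, sunitinib and R+S.

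Granule genes split as well. Ptprn2, or phogrin, a granule membrane protein, was 1502 to 1544 in R+S, above the 1126 to 1248 of control and the 551 to 1199 of sunitinib. It was 0.79 ± 0.23 higher on the log2 scale in R+S than in sunitinib, with an adjusted p of 0.059, and DESeq2 called it. Its relative Ptprn, or IA-2, ran from 697 to 954 in control and 619 to 990 in R+S, and reached 1750 in sunitinib tumor 6. Ucn3, a hormone released with insulin that marks mature beta cells, was 237 to 277 in R+S, below the 294 to 468 of control, and 12.3 in sunitinib tumor 6 against 343 to 473 in the other sunitinib tumors. Slc30a8, which loads zinc into granules, ran from 660 to 1149 in control and 695 to 1383 in R+S, and was 180 in sunitinib tumor 6 against 595 to 951.

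**Figure D4:**
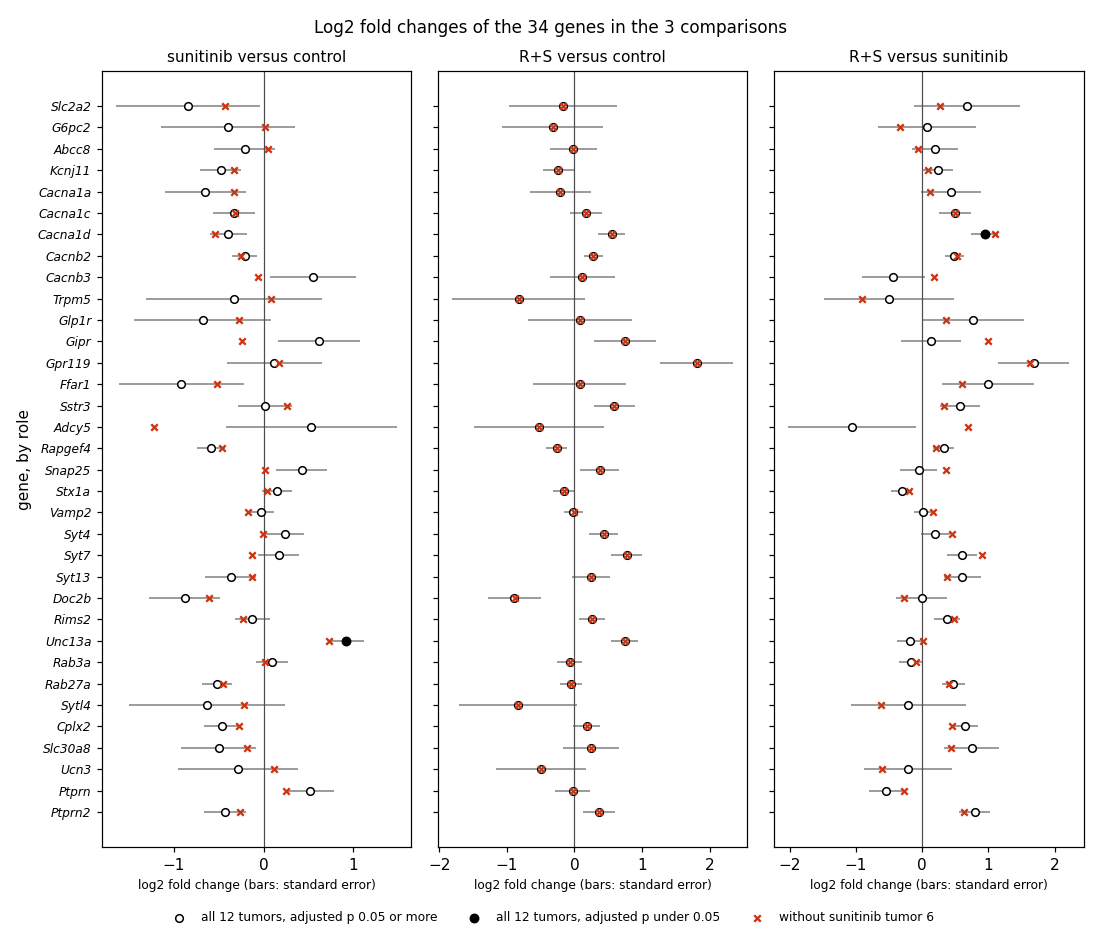
Log2 fold changes of the 34 genes (rows, by role) in the 3 comparisons. Circles are values with all 12 tumors, with standard error bars, filled where the adjusted p was under 0.05 (Unc13a on the left, Cacna1d on the right), and red crosses are values without sunitinib tumor 6, which leave R+S versus control almost in place and move Adcy5, Gipr and Cacnb3 most visibly in the others.

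Within the R+S group, tumor 5 was the lowest in 16 of the 34 genes and the highest in 11. The 16 included Slc2a2, G6pc2, Abcc8, Kcnj11, Trpm5, Glp1r, Doc2b and Sytl4. R+S tumor 10 was the lowest of the group in 12 genes and the highest in 11. Shares of all tested genes were not counted within groups, so these counts are not read as a trait of the 34 genes. Over all tested genes R+S tumor 5 was the lowest of the 12 tumors in 10.7% and the highest in 12.9%, the largest shares in its group. Of the 34 genes it was the lowest of the 12 in 1 and the highest in 5. Its beta cell marker sum of 40770 was also the lowest of the R+S group, where the others began at 48860. That sum lay within the 35710 to 58730 of control.

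Markers of other cells of the tissue also differed between the groups. A list of 18 acinar cell markers summed to 41.6 to 134.5 normalized CPM in control, 11750 to 42170 in sunitinib and 3193 to 17890 in R+S, at most 4.22% of a library, and 16 of the 17 tested were higher in each treated group than in control. Of 10 endothelial markers 9 were called lower in each treated group than in control and 6 higher in R+S than in sunitinib, with sums of 471 to 648 in control, 47.6 to 83.7 in sunitinib and 102 to 131 in R+S. Of the 8 beta cell markers 0 were called in any of the 3 edgeR comparisons. Of the 7 duct cell markers 3 (Muc1, Sox9 and Spp1) were called higher in sunitinib than in control and 0 in the other comparisons, while the list's sum, mostly Krt7 outside sunitinib tumor 6, was 388 to 509, 257 to 621 and 369.9 to 466.7 in control, sunitinib and R+S. In the same order, sums were for pericytes and fibroblasts 711 to 1463, 821 to 1130 and 613 to 905, for macrophages and leukocytes 338 to 489, 179 to 496 and 226 to 326, and for Schwann cells and neurons 251 to 404, 149 to 419 and 169 to 450. The part of these cells in the changes of Unc13a and Cacna1d was not tested. Removing the acinar genes before normalization left both calls in place.

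Of 96 further genes of the same pathway, listed by function, 93 were tested. In sunitinib versus control 4 were called higher and 0 lower, beside 1.93% and 2.55% of all tested genes. Slc2a1, the glucose transporter GLUT1, was 2.24-fold higher (log2 fold change 1.17 ± 0.20, SE, n = 4 per group, adjusted p 0.0052), at 28.0 to 47.8 normalized CPM against 16.1 to 24.0. It was lower in R+S than in sunitinib, at 19.7 to 27.5 (log2 fold change -0.79 ± 0.20, adjusted p 0.039). Whether Slc2a1 and Slc2a2 responded differently was not tested. Cckar, the cholecystokinin receptor, was at most 0.128 in control, 7.32 to 41.9 in sunitinib and 7.40 to 21.4 in R+S, called higher in both treated groups, and its levels moved with the acinar markers, whose part was not tested. Rab27b, a GTPase of secretory granules, was 28.1 in sunitinib tumor 6, 0.963 to 3.32 in the other sunitinib tumors and 0.178 to 0.770 in control. The fourth, Sstr2, is named after its values were seen because the count was small, and was 7.60 in sunitinib tumor 6, 0.449 to 2.01 in the other sunitinib tumors and 0.141 to 0.257 in control.

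Of the 93, 1 was called in R+S versus control, Cckar, which was higher, beside 1.55% of all genes called higher and 2.61% lower. In R+S versus sunitinib 3 were called higher and 3 lower, beside 2.63% and 4.58%. Rimbp2, which ties calcium channels to release sites, was 2.22-fold higher (log2 fold change 1.15 ± 0.24, adjusted p 0.028), at 384 to 552 against 121 to 288. Kcnmb2, a beta subunit of BK potassium channels, was 2.31-fold higher (1.21 ± 0.30, adjusted p 0.037) at 144 to 209 against 36.8 to 116. Cadps, which primes dense-core granules, was 1.66-fold higher (0.73 ± 0.19, adjusted p 0.041) at 198 to 277 against 95.9 to 183. None of these 3 groups of values overlapped between R+S and sunitinib. Cplx1, a complexin, was lower in R+S (-1.64 ± 0.43, adjusted p 0.045), at 2.27 to 5.91 against 6.30 to 27.0, where 27.0 was sunitinib tumor 6 and without it the adjusted p was 0.059. Slc2a1 and Sstr2 were the other 2. The calls of Cadps, Cplx1 and Sstr2 were lost without any 1 control tumor and without any 1 R+S tumor. Cadps was also lost without sunitinib tumor 8 or 12. The Kcnmb2 call was lost without control tumor 3 or 4, any 1 R+S tumor, or sunitinib tumor 8 or 12. That of Slc2a1 was lost without control tumor 1, 3 or 4, any 1 R+S tumor, or sunitinib tumor 12. Rimbp2 lost its call without R+S tumor 4, 5 or 7. When only the 8 treated tumors were fitted, 0 of the 91 related genes tested were called in edgeR. In that fit 24 of them and 3971 of all 16167 tested genes had an unadjusted p under 0.05. DESeq2 on all tumors called 7 related genes higher and 6 lower, beside 7.8% and 11.7% of all genes.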

How the data were processed

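RNA-seq counts of 12 RIP1Tag2 PanNETs, 4 per group, were grouped by the sample labels. The authors deposited 1 table of raw read counts per gene and tumor, from TruSeq Stranded mRNA libraries. The submitters' processing notes name cutadapt 1.2.1, TopHat2 2.0.9, HTSeq 0.5.4p3 and GRCm38, without roles or strand settings. The 5 summary lines of each table, which name no gene, were left out, and no column was unassigned. Symbols, coordinates and exon lengths came from GENCODE M21 (GRCm38) and promoter sequence from RefSeq. Of 38924 identifiers 37607 had a symbol.

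In edgeR 4.0.16 (with limma 3.58.1, in R 4.3.3), genes were kept by filterByExpr (minimum count 10, minimum total 15), scaled by TMM and fitted with glmQLFit (robust) and glmQLFTest, with 3 contrasts from 1 fit of all 12 tumors, because the sources used here do not give the study's test. P-values were adjusted by Benjamini-Hochberg over all genes tested, with a threshold of 0.05. Log2 CPM used a prior count of 2, and 95% intervals use the normal quantile of the SE. Exact permutation tests of log2 CPM were two-sided over 70 arrangements of 4 against 4. The test was checked on simulated data. Depth of 31872342 to 44215054 reads per tumor leaves tumor-to-tumor spread, not counting, as the main error for these genes. PCR copies were not marked. Alternatives were DESeq2 1.42.0, other normalizations and filters, fits of 8 tumors, treated tumors with the same prefix summed (2 sunitinib and 3 R+S sums, with the 4 controls kept apart), and leaving out each tumor.

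The 34 genes, the related genes and the marker lists were chosen with earlier results of these data known. All 34 genes are named. Those called in any contrast, and Slc2a2, Abcc8, Kcnj11 and Glp1r, are given tumor by tumor, and Gpr119 was added after its values were seen. Of the related genes, up to 6 per contrast were named if called, at an average log2 CPM of at least 1, by largest fold change. Of the alpha cell list, 2 markers are not reported here, and neither is the list's sum.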

Additional observations from a re-analysis of the deposited data

Results flagged for a closer look

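Values of the 34 genes were compared within each group of 4 tumors, in 102 sets, and 12 sets held a tumor whose log2 CPM stood apart from the nearest other by more of the whole range than Dixon's 95% critical value. For independent, normally distributed values chance gives about 1 in 20 such sets. The 102 sets share the same 12 tumors and are not independent, so the count is not compared with that rate. Sunitinib tumor 6 accounted for 6 of the 12 sets. It was lowest for the glucose transporter Slc2a2 at 2.045 normalized CPM (others 69.8 to 124), G6pc2 at 29.18 (1246 to 1740), Trpm5 at 2.321 (203 to 503), Sytl4 at 7.019 (661 to 1055) and Ucn3 at 12.27 (343 to 473), and highest for the GIP receptor Gipr at 124.1 (25.5 to 33.3). Control tumor 1 stood apart for 3 genes, low for Trpm5 at 172.5 (354 to 388) and high for Adcy5 at 37.37 (5.10 to 6.71) and Syt7 at 325.5 (263 to 272). Control tumor 3 was low for Glp1r at 174.7, a small step below 186 to 187 in the others. R+S tumor 10 was low for Adcy5 at 2.327 (9.90 to 13.3) and Snap25 at 175.2 (226 to 238).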

How the results depend on the processing

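Alternatives are given as counts of calls for all genes, the 34 genes and the related genes, and for log2 fold changes of the 34 genes, printed or not, that exceeded their standard error, plus those of Slc2a2, Abcc8, Kcnj11 and Glp1r and that of Sytl4 in R+S versus control. Over all settings, 72 of 2142 log2 fold changes of the 34 genes changed sign, and none of these was a call. No paired analysis was possible because any 2 groups share at most 1 replicate number.

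In sunitinib versus control, where 745 genes, 1 of the 34 and 4 related genes were called, at least 10 counts in every tumor gave 408 genes and 1 related gene, the 8 tumors alone gave 380, 0 and 2, and DESeq2 gave 1477 genes and 2 of the 34 (Rapgef4 besides Unc13a). Library size alone gave 715 genes and 2 of the 34, and a log2 fold change of at least 1 gave 633 genes and 0 of the 34. Treated tumors with the same prefix were also summed (4 controls against 2 sunitinib and 3 R+S sums). This gave 752 genes, 3 of the 34 (Ffar1, Rapgef4 and Unc13a) and 6 related genes. Leaving out 1 tumor gave 440 to 902 genes, 0 to 2 of the 34 (0 without control 1 or control 3, 2 without sunitinib 5 or sunitinib 8) and 2 to 7 related genes.

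In R+S versus control, where 693, 0 and 1 were called, the 8 tumors alone gave 2557, 6 and 11, and DESeq2 1688, 3 and 5. Summed prefixes gave 671 genes, 1 of the 34 (Unc13a) and 3 related genes. At least 10 counts in every tumor gave 0 related genes, and a log2 fold change of at least 1 gave 458 genes. Leaving out 1 tumor gave 292 to 1627 genes, 0 to 3 of the 34 (3 without sunitinib 6, and 1 each without sunitinib 5, 8 or 12) and 1 to 5 related genes. In R+S versus sunitinib, where 1200, 1 and 6 were called, no filter gave 501 genes and 1 related gene. The 8 tumors alone gave 3, 0 and 0, and DESeq2 3045, 5 and 13. Summed prefixes gave 1043 genes, 4 of the 34 and 9 related genes. A log2 fold change of at least 1 gave 408 genes, 0 of the 34 and 4 related genes. Leaving out 1 tumor gave 0 to 2861 genes, 0 to 6 of the 34 and 0 to 18 related genes. The lowest counts came without R+S 5 (0 genes in edgeR, 3870 at an unadjusted p under 0.05) and without R+S 4 or R+S 7 (1 gene each), and the highest without sunitinib 5 for all and related genes and without sunitinib 6 for the 34. The cause was not tested.

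Abcc8 reversed in R+S versus control with prefixes summed (0.049). Leaving out 1 tumor turned Abcc8 (-0.383 to 0.044 in sunitinib versus control, -0.208 to 0.192 in R+S versus control, -0.058 to 0.402 in R+S versus sunitinib), Cacnb3 (-0.067 to 0.942), Gipr (-0.241 to 0.848) and Syt4 (-0.009 to 0.368) in sunitinib versus control, Slc2a2 (-0.737 to 0.096) and Glp1r (-0.076 to 0.210) in R+S versus control, and Adcy5 (-1.396 to 0.698) in R+S versus sunitinib. With 4 tumors per group, differences as large as 1.81 ± 0.54 (Gpr119 in R+S versus control) did not pass the edgeR test. A gene that was not called is thus not shown to be unchanged.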
